A study of Macaca fascicularis with 2 samples.

Results

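The INHBB COL4A3 cells described here are somatic cells of the fetal ovary of the cynomolgus monkey (Macaca fascicularis) that hold messenger RNA of at least 2 of INHBB, COL4A3, COL4A4 and PLXNC1. They are 315 of the 20967 cells in the count table, and 315 of the 17943 cells with at least 1000 unique molecular identifiers (UMIs, each standing for 1 captured RNA molecule). That is 1.76% of the latter (1.57–1.96). RNA was sequenced in single cells from whole ovaries, 1 fetus being sampled at E84 (embryonic day 84) and 1 at E116, and the 2 ovaries of each fetus forming 1 library. The cell barcodes of the table end in 1 or 2, and no label ties an ending to a stage, so values below are sums over the pooled table and the endings serve only as unlabelled libraries. Of the 315 cells, 307 had barcodes ending in 2, a share of 3.3% of such cells with at least 1000 UMIs (2.95–3.69), and 8 had barcodes ending in 1 (0.0925%, 0.0399–0.182).

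Granulosa cells surround the oocyte and, together with it, build the follicle. They secrete inhibins and activins, dimers of the subunits encoded by INHA, INHBA and INHBB that act on the release of follicle-stimulating hormone and on neighbouring cells, as well as anti-Müllerian hormone, and in growing follicles they turn androgens into estrogens. A basement membrane of type IV collagen and laminin parts them from the stroma, and COL4A3 and COL4A4 encode 2 of the collagen chains. PLXNC1 encodes a semaphorin receptor.

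The cells were selected on their measured counts. A cell was kept when it held at least 4 UMIs from at least 2 of INHBB, COL4A3, COL4A4 and PLXNC1, more than of the set SOST, CRYM, TOX3 and HS3ST3A1 and more than of the set LYPD1, CBLN2, RGS4 and HEY2. UMIs of the fibrillar collagens COL1A1, COL1A2 and COL3A1 had to stay below 20 per 10000 and DAZL, a germ cell gene, had to be at 0. The same rule with the other sets in first place gave 1316 SOST TOX3 cells and 751 LYPD1 CBLN2 cells, the groups of somatic cells used for comparison. Of the SOST TOX3 cells 975 had barcodes ending in 1 and 341 in 2, and of the LYPD1 CBLN2 cells 2 and 749. Pooled values against SOST TOX3 cells therefore also set largely 1 library against the other. Of 1241 cells with enough UMIs of the 4 genes, 958 had more of them than of the SOST set and 431 more than of the LYPD1 set, and the limits on collagens and DAZL left 352 and then 315. The 315 cells held between 4 and 99 UMIs of the 4 genes, with a median of 8. All 4 genes were detected in 66 cells, COL4A3, COL4A4 and PLXNC1 without INHBB in 57, and INHBB with PLXNC1 alone in 54. The 58 cells just inside the limit, with exactly 4 UMIs, had 123 CPM (counts per 1000000 UMIs) of INHBB and 167 CPM of COL4A3. The 79 cells just outside it, with 3 UMIs, had 117 and 310.4 CPM, at a median depth of 2210 UMIs against 4985.5.

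Levels of those 4 genes chose the cells and are given only as a description. INHBB stood at 437 CPM (415–460.4) in INHBB COL4A3 cells, 70.9 in SOST TOX3 cells and 8.59 in LYPD1 CBLN2 cells. PLXNC1 stood at 479, 28.1 and 40.9. COL4A3 was at 176, 5.24 and 165, and COL4A4 at 131, 7.01 and 104. The collagen chains were thus nearly as high in LYPD1 CBLN2 cells as in the cells described here, and far lower in SOST TOX3 cells. INHBB and PLXNC1 were lower in both other groups. Intervals throughout are exact Poisson intervals for levels and exact binomial intervals for shares, at 95%, and cover counting error only. With 1 library per stage there are no replicates, so levels of the groups are set side by side without a test.

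The 315 cells had a median of 7690 UMIs and 2622 genes, close to the 7540.5 UMIs of SOST TOX3 cells and below the 9915 UMIs of LYPD1 CBLN2 cells. The median share of mitochondrial UMIs was 18.9%, against 10.4% and 15.1% in those groups and 10.2% over all cells of this depth. A limit of 10% on that share, which left 19 cells, was run as an alternative and is given below. The part of that share in the results was not tested further. Over all cells 27 barcode sequences occurred with both endings, of which 1 belonged to an INHBB COL4A3 cell, and 0 pairs of the 315 cells shared a sequence. No cell was removed as a doublet. Of the 6 granulosa markers, FST was at 369 CPM (348–390.2), AMHR2, the receptor of anti-Müllerian hormone, at 154 CPM (141–168), KITLG at 115, NR5A1 at 42.8 and WT1 at 135 CPM. The 6527 cells above the collagen limit without DAZL, here called collagen-high cells, had 55.2, 91.6, 91.8, 35.3 and 144 CPM. FOXL2, the transcription factor that defines granulosa cells, was at 4.56 CPM (2.55–7.52), only 15 UMIs in all 315 cells, and at 1.78 CPM in collagen-high cells.

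Defining markers of most other cell types were low. The 10 macrophage markers summed to 21.9 CPM with LAPTM5 at 0, against 7078 CPM in 81 cells selected on such markers. The 10 endothelial markers summed to 44.7 CPM with CLDN5 at 0, against 1588 CPM in 744 cells selected on them. The 10 germ cell markers in the table summed to 62.6 CPM with STRA8 at 0, against 1438 CPM in cells with at least 2 DAZL UMIs. Since the rule required 0 DAZL UMIs, a low germ cell level follows in part from the selection. The stromal genes LUM and PDGFRA had 2 and 1 UMIs in all, although DCN reached 367 CPM, against 2158 CPM in collagen-high cells. The 10 stromal markers summed to 554 CPM, against 4530 CPM in collagen-high cells. SOST TOX3 cells had 1131 CPM and LYPD1 CBLN2 cells 608 CPM. By the measure defined below, POSTN was past 2-fold higher than in SOST TOX3 cells, and MFAP4 and TCF21 lower. POSTN was past 2-fold lower than in LYPD1 CBLN2 cells. The rule capped fibrillar collagens, so a low stromal level follows in part from the selection. The 7 pericyte markers, led by RGS5 at 355 CPM, summed to 504.4 CPM, against 508 CPM in SOST TOX3 cells and 1395 CPM in LYPD1 CBLN2 cells. ACTA2 was past 2-fold higher than in SOST TOX3 cells, and NOTCH3 and RGS5 past 2-fold lower than in LYPD1 CBLN2 cells. The 9 markers of the surface epithelium summed to 265 CPM, against 869 and 522 CPM in those groups, and the 4 of red cells to 69.0 CPM, against 2385 and 1082 CPM. The part of these markers in the results was not tested.

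The first comparison asked what sets INHBB COL4A3 cells apart from SOST TOX3 cells, which carry genes of pregranulosa cells, and the second what sets them apart from LYPD1 CBLN2 cells. A gene was counted as past 2-fold when its log2 ratio of CPM + 10 was at least 1 or at most -1 in the pooled sums and also among barcodes ending in 2, the only ending with at least 50 cells of both groups. Genes averaging under 10 CPM over the groups compared, and the 16 genes that the rule used, were left out. Against SOST TOX3 cells, 149 of 8287 genes (1.8%) were past 2-fold higher and 225 (2.72%) past 2-fold lower. Against LYPD1 CBLN2 cells, 117 of 8085 (1.45%) were higher and 237 (2.93%) lower. Higher than in both groups were 67 genes, and lower than in both 51. The groups were themselves cut out by expression and both comparisons share the same 315 cells, so these counts and the ratios below describe the groups and test nothing. The median log2 ratio of all genes compared was -0.11 and -0.05.

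Hormone genes of the follicle and an activin-binding protein were among the 15 leading genes higher than in both groups. INHA, the alpha subunit that turns activin subunits into inhibins, stood at 199.6 CPM (185–215), against 12.5 CPM in SOST TOX3 cells (7.02 in barcodes ending in 1 and 21 in those ending in 2) and 28.6 CPM in LYPD1 CBLN2 cells. The log2 ratios were 3.22 (2.99 to 3.44) and 2.44 (2.21 to 2.67), and the former was 2.80 among barcodes ending in 2. The latter fell to 0.90 in the 19 cells under 10% mitochondrial UMIs. That limit also gives more weight to cells with barcodes ending in 1, in which INHA had no UMI. AMH, anti-Müllerian hormone, stood at 89.3 CPM (79.4–100.2), against 3.75 and 16.1 CPM, with log2 ratios of 2.85 and 1.93. FST, follistatin, which binds and blocks activin, was at 369 CPM against 97.4 and 85.9 CPM, log2 ratios of 1.82 and 1.98. All 3 levels exceeded both other groups by more than the counting intervals. INHBA, the other activin subunit gene, was past 2-fold lower than in LYPD1 CBLN2 cells, at 18.2 CPM (13.9–23.5) here, 27.3 CPM in SOST TOX3 cells and 55.5 CPM in LYPD1 CBLN2 cells.

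The receptors of the pathway showed smaller differences. AMHR2 lay at 173 CPM in SOST TOX3 cells and 277 CPM in LYPD1 CBLN2 cells, log2 ratios of -0.16 and -0.81. BMPR1B, a receptor of bone morphogenetic proteins, was at 158 CPM here, 64.4 and 164 CPM there, and within barcodes ending in 2 its ratio over SOST TOX3 cells was 0.96. ACVR2A, an activin receptor, was at 12.5, 27.2 and 20.8 CPM. FSTL3, a second activin-binding protein, was past 2-fold lower than in LYPD1 CBLN2 cells (23.1 against 114 CPM). SMAD7, an inhibitor of the pathway, was past 2-fold lower than in SOST TOX3 cells (3.65 against 20.2 CPM). Of the 32 pathway genes in the table, 26 could be compared with SOST TOX3 cells, with 3 higher, 2 lower and a median log2 ratio of -0.08, and 23 with LYPD1 CBLN2 cells, with 3 higher, 2 lower and a median of -0.05.

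**Figure D1:**
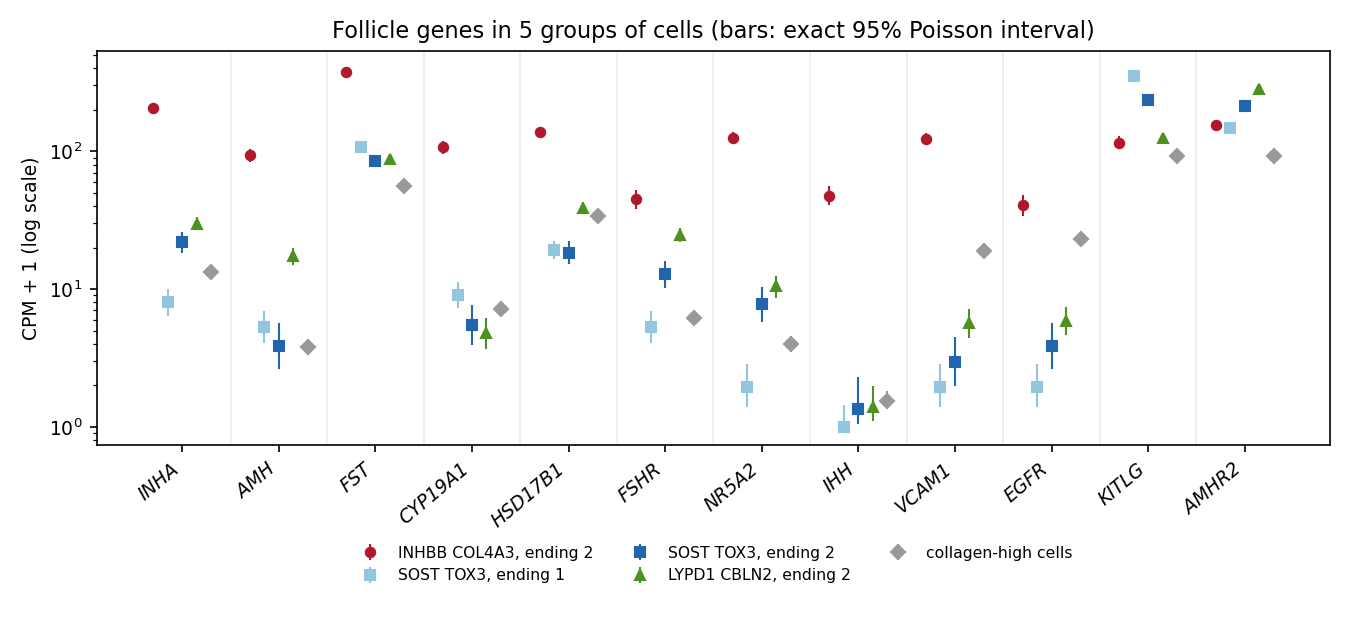
Levels of 12 follicle genes as CPM + 1 on a log axis, with exact 95% Poisson intervals, in INHBB COL4A3 cells with barcodes ending in 2 (red), SOST TOX3 cells of either barcode ending (blue), LYPD1 CBLN2 cells with barcodes ending in 2 (green) and collagen-high cells (grey). The red points stand above all others for the first 10 genes, among them INHA at 206 CPM and CYP19A1 at 106 CPM in this ending, and below those of SOST TOX3 cells for KITLG.

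Genes of estrogen synthesis showed the same direction. CYP19A1, aromatase, which makes estrogens from androgens, stood at 103 CPM (92–114), against 6.66 CPM in SOST TOX3 cells (8.07 and 4.48 by ending) and 3.77 CPM in LYPD1 CBLN2 cells. The log2 ratios were 2.76 (2.49 to 3.01) and 3.03 (2.75 to 3.29). The level was uneven: 84 cells held a UMI, 10 cells held 186 of the 338 UMIs, and 1 cell held 47. HSD17B1, which turns estrone into estradiol, was at 133 CPM (121–146) against 18 and 38 CPM. FSHR, the receptor of follicle-stimulating hormone, was at 42.5 CPM (35.8–50.2) against 7.29 and 23.5 CPM, past 2-fold over SOST TOX3 cells only, with a log2 ratio over LYPD1 CBLN2 cells of 0.65. CYP17A1, which makes the androgens, had 4 UMIs in all 315 cells (1.22 CPM). Among steroid receptors, ESR1 was past 2-fold lower than in SOST TOX3 cells (31.6 against 88.9 CPM) and NR3C1, the glucocorticoid receptor, lower than in both (18.8, 79.7 and 53.2 CPM). ESR2 was at 20.1, 25.8 and 10.5 CPM. Of the 20 measured steroid genes, 13 were compared in each case, with 3 higher and 2 lower (median 0.47) against SOST TOX3 cells and 2 higher and 1 lower (median 0.18) against LYPD1 CBLN2 cells.

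The nuclear receptor NR5A2, a regulator of steroid genes, stood at 120.3 CPM (109–133), against 3.26 and 9.37 CPM, while its relative NR5A1 differed little, at 42.8, 58.8 and 37.3 CPM. VCAM1, a cell adhesion molecule, ranked highest of the genes higher than in both groups by the smaller of its ratios, with 118 CPM (107–131) against 1.35 and 4.64 CPM and log2 ratios of 3.50 and 3.13. EGFR, the receptor of epidermal growth factor, was at 38.6 CPM (32.2–45.9) against 1.7 and 4.83 CPM. IHH, a hedgehog ligand, was at 45.3 CPM (38.3–53.2), with 2 UMIs in all SOST TOX3 cells and 4 in all LYPD1 CBLN2 cells, log2 ratios of 2.45 (2.20 to 2.66) and 2.41 (2.14 to 2.64). Few cells carried most of this gene: it was detected in 44 cells, and the 10 cells with the most held 104 of its 149 UMIs. DHH, the other hedgehog ligand of granulosa cells, was at 17.3, 10.8 and 18.5 CPM, and the hedgehog target PTCH1 at 35.2 CPM, against 65.8 CPM in collagen-high cells. Of the 28 follicle signal genes in the table, 19 were compared with SOST TOX3 cells (median log2 ratio 0.20). There 3 were higher (BDNF, EGFR and IHH) and 3 lower (FGFR1, FGFR2 and VEGFA). Against LYPD1 CBLN2 cells 18 were compared (median 0.03), with 2 higher (EGFR and IHH) and 4 lower (IGF2, IGFBP5, NTRK2 and PDGFRB).

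The other leading genes higher than in both groups encode secreted proteins, a lipase and proteins with no common role. SERPINE2, an inhibitor of thrombin and plasminogen activators, was at 1317 CPM (1278–1356) against 167 and 268 CPM. CRHBP, which binds corticotropin-releasing hormone, was at 1187 CPM (1149.9–1225) against 90.9 and 270.3 CPM. Its log2 ratio over SOST TOX3 cells was 3.57 pooled and 2.82 among barcodes ending in 2. SPINK2, a serine protease inhibitor, was at 293, 54 and 50.8 CPM. These 3 genes were read in most or many cells, with UMIs in 284, 275 and 184 of the 315. LIPH, lipase H, was at 79.6, 2.48 and 8.21 CPM, FAM78A at 85.1, 1.98 and 9.08, and TNNT1, a troponin, at 92.1, 16.1 and 15.3. UBE2C, an enzyme of mitotic exit, is described with the dividing cells. Of the 67 genes higher than in both, 60 had a symbol, and the leading gene without one was ENSMFAG00000044471, with log2 ratios of 4.22 and 3.03.

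In the 8 cells with barcodes ending in 1, INHA, AMH, CYP19A1, IHH, NR5A2, VCAM1, FSHR and EGFR had 0 UMIs. A count of 0 in their 99465 UMIs allows a level of up to 30.2 CPM by a limit of 3 counts, used here in place of an interval. CRHBP had 2 UMIs and SERPINE2 26, while KISS1, which encodes kisspeptin, had 275 of its 334 UMIs in those 8 cells and PTGDS, a prostaglandin D synthase, 329 of 804. Without them KISS1 stood at 18.5 CPM and PTGDS at 149 CPM, against 280.1 and 1768 CPM in SOST TOX3 cells of the same ending. With 8 cells in 1 of the endings, a comparison of INHBB COL4A3 cells between endings was not made.

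Of 19 granulosa identity genes compared with SOST TOX3 cells, 7 were past 2-fold lower, 2 (FST and NR5A2) higher and 10 within 2-fold. WT1, a transcription factor of the gonadal supporting lineage, was at 135 CPM (123–148) against 292 CPM, and EMX2 at 152 against 367 CPM. RSPO1, which raises WNT signalling in the early ovary, was at 13.7 CPM (9.97–18.3) against 63.8 CPM. LEF1, a transcription factor of that pathway and a member of the WNT list, was at 21.9 against 156 CPM. BMP2 was at 29.2 against 126 CPM and IRX3 at 35.2 against 171 CPM. All 6 were past 2-fold lower, and none of them was past 2-fold against LYPD1 CBLN2 cells, where RSPO1 stood at 8.59 and LEF1 at 29.9 CPM. The ratio of WT1, -1.06, was within 2-fold in cells under 10% mitochondrial UMIs (-0.79), after thinning to 3000 UMIs (-0.96) and without dividing cells (-0.80), and that of RSPO1 turned to 0.40 in cells under 10% mitochondrial UMIs. KITLG, the ligand through which granulosa cells reach the KIT receptor of oocytes, was at 115 CPM (103–127), 304 and 123 CPM, and its ratio over SOST TOX3 cells was -1.33 pooled but -0.96 within barcodes ending in 2. Of the identity list 27 genes were measured, and the 19 compared with SOST TOX3 cells had a median log2 ratio of -0.49. Against LYPD1 CBLN2 cells 18 were compared, with 3 higher, 1 lower and a median of -0.10. In the WNT list of 31 genes, DKK3 and SFRP4, secreted proteins related to WNT antagonists, were past 2-fold higher than in SOST TOX3 cells (177 against 19.5 and 119 against 4.39 CPM), and no gene passed against LYPD1 CBLN2 cells, where SFRP4 was at 109.6 CPM.

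Among basement membrane genes other than the chains that chose the cells, several laminins passed 2-fold and the common type IV collagens stayed within it. LAMA1, a laminin alpha chain, was the single member higher than in both groups, at 72.9 CPM (64–82.8) against 13.8 and 22.1 CPM. LAMC1, the gamma chain of most laminins, was at 252 CPM (235–269.9) against 47.4 and 151 CPM, and DAG1, dystroglycan, a laminin receptor, at 286, 85 and 201 CPM, both past 2-fold over SOST TOX3 cells only. LAMB1, at 283, lay between SOST TOX3 cells (162 CPM) and LYPD1 CBLN2 cells (663 CPM). The LYPD1 CBLN2 cells had more than 2-fold more of LAMB1, LAMA4, AGRN and NID1. COL4A1 and COL4A2, the chains of all basement membranes, had log2 ratios of 0.94 and 0.28 over SOST TOX3 cells and 0.23 and 0.14 over LYPD1 CBLN2 cells. COL4A5, whose chain joins those of COL4A3 and COL4A4 in 1 protein, had 23 UMIs, 6.99 CPM, against 17 and 11.3 CPM. Of 29 genes in the table, 15 were compared with SOST TOX3 cells, with 3 higher, 1 lower and a median log2 ratio of 0.21, and 14 with LYPD1 CBLN2 cells, with 1 higher, 4 lower and a median of -0.17.

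**Figure D2:**
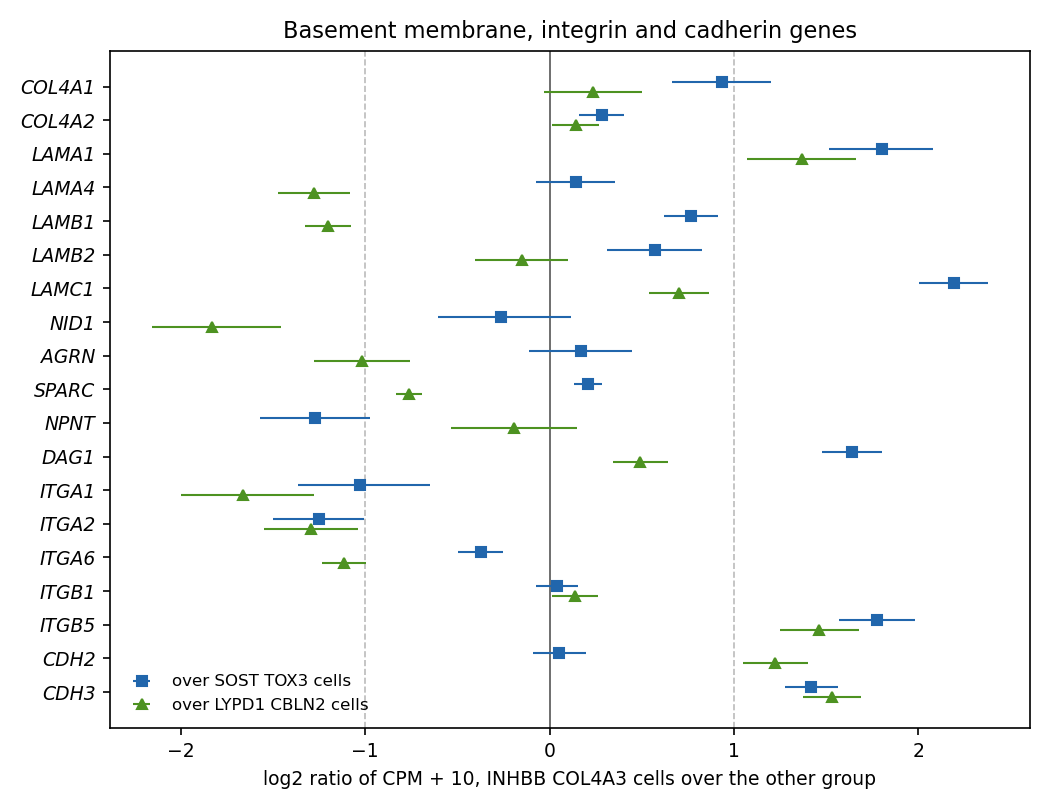
Log2 ratio of CPM + 10 in INHBB COL4A3 cells over SOST TOX3 cells (blue squares) and over LYPD1 CBLN2 cells (green triangles) for 19 basement membrane, integrin and cadherin genes, with bars from the outer Poisson bounds of both groups and dashed lines at 2-fold. LAMA1, ITGB5 and CDH3 lie beyond 1 for both groups, and LAMB1 lies at 0.77 and -1.20.

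Of the adhesion genes, CDH3, P-cadherin, was at 347 CPM (327–368) against 124 and 114 CPM, although its ratio over SOST TOX3 cells was within 2-fold in 3 alternatives (0.58 to 0.96), and ITGB5, an integrin beta chain, at 174 CPM (159.8–189) against 43.8 and 56.7 CPM. Over SOST TOX3 cells the log2 ratio of CDH3 was 1.42 pooled and 2.32 among barcodes ending in 2, and that of ITGB5 1.77 and 1.12. CDH2, N-cadherin, was past 2-fold higher than in LYPD1 CBLN2 cells only (245 against 99.1 CPM, with 236 CPM in SOST TOX3 cells). ITGA1 and ITGA2, alpha chains of collagen receptors, were lower than in both groups, with ITGA2 at 52, 137 and 142 CPM. ITGA6, a laminin receptor chain, was past 2-fold lower than in LYPD1 CBLN2 cells only, at 313, 409 and 689 CPM. Of 10 adhesion genes compared in each case, 2 were higher and 2 lower against SOST TOX3 cells, and 3 higher and 3 lower against LYPD1 CBLN2 cells. PLXNC1 aside, the semaphorin and plexin list gave 1 higher and 3 lower of 16 against SOST TOX3 cells and 0 higher and 1 lower of 16 against LYPD1 CBLN2 cells. SEMA3C was at 142 against 30.6 CPM in SOST TOX3 cells, and SEMA7A, the known ligand of the PLXNC1 receptor, was at 16.4, 45.9 and 11 CPM.

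The NOTCH genes separated the cells from LYPD1 CBLN2 cells. Of 9 compared, 0 were higher and 6 lower, and the median log2 ratio was -1.60. The ligand JAG1 was at 26.1 against 108 CPM and the receptor NOTCH3 at 23.7 against 103 CPM. The targets HES1 and HEYL were at 256 against 798 and 8.81 against 67.8 CPM, and HEY1 and HES4 were lower too. HEY2, a further target, was in the set that chose LYPD1 CBLN2 cells, so this difference is close to the rule. Against SOST TOX3 cells none of 7 was past 2-fold in both the pooled sums and barcodes ending in 2, and the ratio of HES1 was -1.76 pooled and -0.60 within that ending. Of 7 retinoid genes compared, 1 was lower than in SOST TOX3 cells and 3 lower than in LYPD1 CBLN2 cells. ALDH1A2, which makes retinoic acid, was lower than in both, at 45.6, 119 and 116 CPM, and RDH10, which supplies its substrate, was at 73.8 against 349.7 CPM in LYPD1 CBLN2 cells.

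Stress and early response genes were low in the cells. Of the immediate early and heat shock list, 0 were higher and 7 of 25 lower than in SOST TOX3 cells (median log2 ratio -1.04), and 0 higher and 9 of 23 lower than in LYPD1 CBLN2 cells (median -0.97). HSPB1, a small heat shock protein, was at 179.9 CPM (166–195) against 872 and 931 CPM, NR4A1 at 169.8, 609 and 490.0 CPM, and FOS at 1385, 3937 and 2776 CPM. The whole list summed to 7449 CPM, against 16524 and 14868 CPM. GADD45B, a stress gene that slows the cell cycle, was at 229 CPM (213–246) against 744 and 799 CPM, and of the cell cycle inhibitors 2 of 9 and 3 of 8 were lower and none higher.

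The remaining genes at the head of those lower than in both groups have varied roles. HBB, the beta globin of red cells, had the largest drop, to 68.4 CPM (59.7–77.9) from 2379.8 and 1076 CPM, but within barcodes ending in 2 SOST TOX3 cells had 189 CPM. HBB has near-identical copies among which reads may be split, so its level is uncertain, and its ratio over LYPD1 CBLN2 cells was -0.27 when the rule was applied after thinning to 3000 UMIs. GAP43, a growth protein of neurons, was at 16.7, 117 and 77.5 CPM. IGFBP4, which binds insulin-like growth factors, was at 28, 149.6 and 111 CPM, and ADAMTS1, a matrix protease, at 63.2, 197 and 359 CPM. FAM129A, PPARGC1A, ANKRD37 and RARRES2, of which PPARGC1A is a coactivator of mitochondrial genes and RARRES2 encodes chemerin, had log2 ratios from -1.84 to -1.49 over SOST TOX3 cells and from -2.15 to -1.74 over LYPD1 CBLN2 cells.

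**Figure D3:**
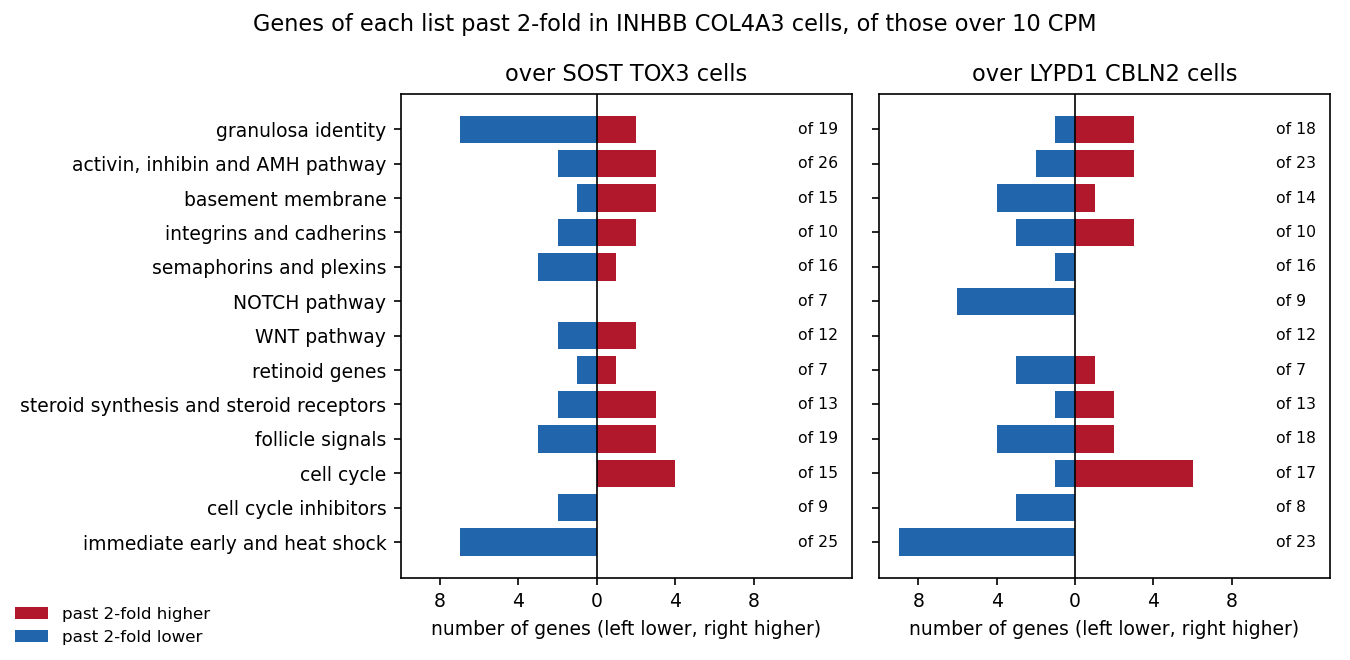
Number of genes past 2-fold higher (red, to the right) and lower (blue, to the left) in INHBB COL4A3 cells over SOST TOX3 cells (left panel) and LYPD1 CBLN2 cells (right panel) for 13 gene lists, with the number of genes compared at the right of each row. The cell cycle list has 4 and 6 genes to the right, and the immediate early and heat shock list has 7 and 9 to the left.

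Further genes had larger ratios over SOST TOX3 cells than over LYPD1 CBLN2 cells. PPARG, a nuclear receptor of lipid metabolism, was at 89 CPM (79.1–99.8) against 4.39 CPM, with 50.5 CPM in LYPD1 CBLN2 cells. NDP, norrin, a ligand of a WNT receptor, was at 122 against 5.95 and 54 CPM, GRB14, an adaptor of the insulin receptor, at 567 against 77 CPM, and HOPX at 297 against 40.4 CPM. CD99, a surface protein, was at 1385 CPM (1345–1426) against 205 and 515 CPM, and ERMP1 at 159.5 against 14.5 and 44.4 CPM. NDP, CD99 and ERMP1 were past 2-fold over both groups, and PPARG, GRB14 and HOPX over SOST TOX3 cells only. In the other direction DUSP2, a phosphatase of MAP kinases, was at 51 against 440.2 CPM, FGFR1 at 50.4 against 316 CPM, and MT3, AP1S2 and GNG11 had log2 ratios of -2.49, -2.49 and -2.45, of which only MT3 was lower than in both groups. Other genes parted the cells mainly from LYPD1 CBLN2 cells. MYL7, a myosin light chain, was at 70.8 against 6.37 CPM, CHGA, a granin of secretory vesicles, at 105 against 14.2 CPM, and PCP4 at 76.6 against 12.8 CPM. COX4I2, a subunit of cytochrome oxidase, was at 8.2 against 188 CPM, NR1H4, the bile acid receptor, at 14.3 against 120.2 CPM, and ADIRF, TMEM56, PTGR1, SBSPON, THY1 and S100A6 were lower by log2 ratios from -2.51 to -2.15. Of the 28 granulosa genes that the study itself named, 24 were compared with SOST TOX3 cells, with 2 higher and 5 lower, and 27 with LYPD1 CBLN2 cells, with 1 higher and 11 lower, and since they were picked on these libraries they are no independent evidence.

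Part of the cells was dividing. Of the 315 cells, 60 (19%, 14.9–23.8) held at least 5 UMIs of the mitosis genes TOP2A, MKI67, UBE2C and CENPF, and they held 93.2% of all such UMIs. In SOST TOX3 cells the share was 10.3% over all and 12.9% (9.53–16.9) in barcodes ending in 2, and in LYPD1 CBLN2 cells 4.79% (3.38–6.57). With every cell thinned to 1000 UMIs, 25.1% of the cells (20.4–30.2) kept at least 1 UMI of the 4 genes, against 15.3% (13.4–17.3) of SOST TOX3 cells, 11.4% (8.26–15.3) of those with barcodes ending in 2, and 6.66% (4.98–8.68) of LYPD1 CBLN2 cells. TOP2A was at 210.3 CPM (195–227) against 82.6 and 31.1 CPM, UBE2C at 220.0 CPM (204–237) against 39.9 and 18.6 CPM, and of the cell cycle list 4 of 15 genes were past 2-fold higher than in SOST TOX3 cells and 6 of 17 than in LYPD1 CBLN2 cells. CCND1 was the only member lower, at 7.6 against 30.4 CPM in LYPD1 CBLN2 cells. Collagen-high cells and cells with DAZL, for scale, kept a UMI of the 4 genes in 14.3% and 61.2% after thinning.

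The dividing cells carried most of the IHH. This split was made after the values had been seen. IHH stood at 146 CPM (122–173) in the 60 dividing cells, which held 130 of its 149 UMIs, and at 7.92 CPM (4.77–12.4) in the other 255. CYP19A1 was at 246 CPM (215–281) and 49.2 CPM (40.7–58.9), and INHBB, which the rule used, at 924 and 256 CPM. INHA was at 292 and 165 CPM, NR5A2 at 188 and 95.1, VCAM1 at 180.3 and 95.5, and FST at 632 and 271. AMH, LIPH and LAMC1 differed by less than their counting intervals, with AMH at 85.1 CPM (67.1–107) and 90.9 CPM (79.2–104). Dividing cells of the other groups had far lower levels of both genes. The 135 dividing SOST TOX3 cells had 0.343 CPM of IHH and 1.03 CPM of CYP19A1, and the 36 dividing LYPD1 CBLN2 cells had no IHH UMI and 3.25 CPM of CYP19A1. The dividing INHBB COL4A3 cells were deeper, with a median of 13763 UMIs against 7392, and similar in mitochondrial share (19.3% against 18.7%). With dividing cells left out of all groups, 13 of the 15 leading genes remained past 2-fold over both. The exceptions were UBE2C, which the split used, and IHH, at log2 ratios of 0.83 and 0.78.

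**Figure D4:**
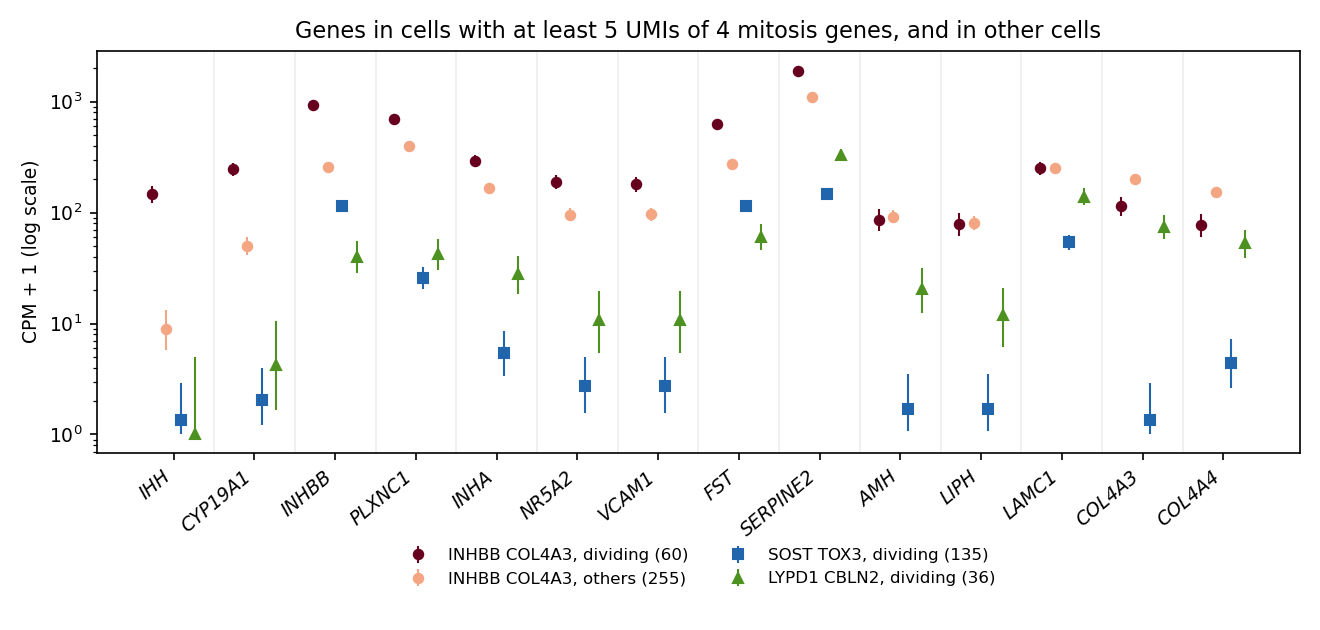
Levels of 14 genes as CPM + 1 on a log axis, with exact 95% Poisson intervals, in the 60 dividing INHBB COL4A3 cells (dark red), the other 255 (light red) and the dividing cells of the other groups (blue and green). IHH and CYP19A1 show the widest gaps between dark and light red, at 146 against 7.92 CPM and 246 against 49.2 CPM. COL4A3, which the rule used, is lower in dividing cells, at 113 against 199.7 CPM. An INHBB UMI was held by 57 of the 60 dividing cells and 133 of the other 255. A cell without INHBB had to qualify by the other genes of the set, so the COL4A3 gap is given only as a description.

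The cells also varied with INHBB itself. Within barcodes ending in 2, 183 cells held an INHBB UMI and 124 did not, with median depths of 8439 and 7273 UMIs and median mitochondrial shares of 20.1% and 18.1%, whose part in the differences was not tested. This comparison, too, was chosen after values had been seen, and because a cell without INHBB had to qualify by at least 2 of the other genes, those genes are not compared. Of 7933 genes, 100 (1.26%) were past 2-fold higher with INHBB and 90 (1.13%) lower. CYP19A1 was at 161 CPM (144–179) with INHBB and 8.69 CPM (4.17–16) without, a level near that of the other groups. IHH was at 72 and 1.74 CPM, INHA at 270.0 and 92.1, FST at 479 and 188, and HSD17B1 at 169.6 and 77.3. AMH had overlapping intervals, at 101 CPM (87.6–116) and 76.4 CPM (61.3–94.2). Of the cell cycle list 8 of 15 were higher with INHBB, and 56 of the 183 cells (30.6%) met the mark of 5 mitosis UMIs, against 3 of 124 (2.42%). Thinned to 1000 UMIs, 36.1% (29.1–43.5) and 9.68% (5.1–16.3) kept a UMI of the 4 mitosis genes. With dividing cells left out, 24 genes were higher and 64 lower, and CYP19A1 still differed, at 89.2 against 8.94 CPM.

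Cells without an INHBB UMI had more of several genes that are high in LYPD1 CBLN2 cells. RDH10 was at 173 CPM (149.7–199) without INHBB and 20.1 CPM with it, and at 352 CPM in LYPD1 CBLN2 cells. LAMA4 was at 185, 53.9 and 260.2 CPM, LAMB1 at 449, 195 and 668, and HES1 at 386, 174 and 800.0. NR1H4 was at 32.1, 4.41 and 121 CPM. These 5 genes were picked for being lower with INHBB and high in LYPD1 CBLN2 cells, so the order of the groups was fixed by the choice. Cells without INHBB also had to qualify by COL4A3, COL4A4 and PLXNC1, and both collagen chains were high in LYPD1 CBLN2 cells. A likeness to that group may therefore follow from the rule itself. With RDH10, LAMA4 and NR1H4, the genes TAGLN, PRELP, SULF1, RASL11A and AKR1C1 made up the 8 with the largest drop, these 5 by log2 ratios from -2.13 to -1.59, and of these AKR1C1 has close relatives among which reads may be split. At the limit of the rule, 26 cells had equal UMIs of the INHBB and LYPD1 sets and were left out.

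**Figure D5:**
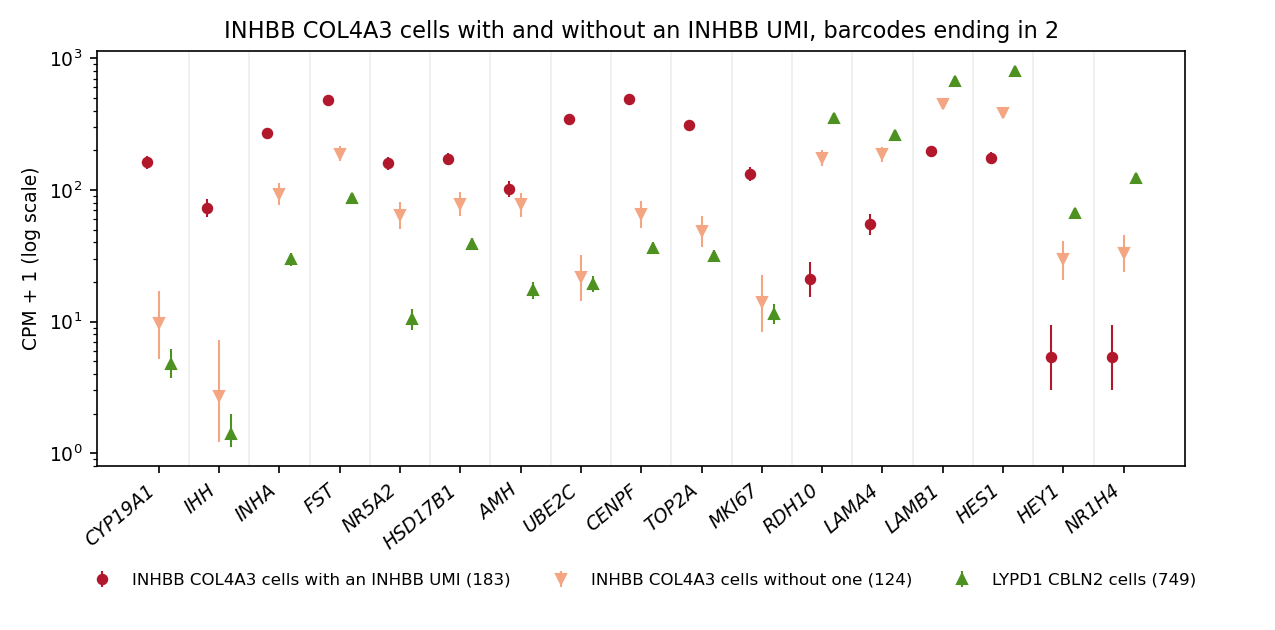
Levels of 17 genes as CPM + 1 on a log axis, with exact 95% Poisson intervals, in INHBB COL4A3 cells with (red circles, 183 cells) and without an INHBB UMI (light triangles, 124 cells) and in LYPD1 CBLN2 cells (green, 749 cells), all with barcodes ending in 2. The red points are highest from CYP19A1 to MKI67 and lowest from RDH10 to NR1H4, where the light triangles lie between red and green.

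At single cells, most follicle genes were read in a minority of cells. After thinning each cell to 1000 UMIs, INHA was detected in 14% (10.3–18.3) of INHBB COL4A3 cells, against 1.22% (0.696–1.97) of SOST TOX3 cells, 2.53% (1.53–3.92) of LYPD1 CBLN2 cells and 2.47% (0.3–8.64) of the 81 macrophage marker cells. Thinned shares of AMH were 8.25% (5.46–11.9), 0.532% (0.214–1.09), 1.46% (0.733–2.61) and 0%, where 0 of 81 cells allows up to 3.7% by the limit of 3 counts and 4.45% by the exact interval. CYP19A1 gave 6.98% (4.43–10.4), 0.608% (0.263–1.19), 0.399% (0.0825–1.16) and 0%, and FSHR 3.17% (1.53–5.76), 0.608% (0.263–1.19), 2.53% (1.53–3.92) and 0%. For INHA, AMH and CYP19A1 the interval in INHBB COL4A3 cells lay above those of both other groups, and for FSHR it overlapped that of LYPD1 CBLN2 cells. Unthinned, at a median of 7690 UMIs, INHA was detected in 51.7% of the cells, AMH in 36.5%, CYP19A1 in 26.7%, HSD17B1 in 50.8% and FSHR in 29.8%. The macrophage marker cells, at a median of 6427 UMIs, gave 4.94%, 1.23%, 3.7%, 14.8% and 0%. Of these 5 genes HSD17B1 had the highest share in cells that should lack it. CRHBP and SERPINE2 were read in 57.5% and 55.2% of thinned INHBB COL4A3 cells, against 5.85% and 13.1% of SOST TOX3 cells, 20% and 22.5% of LYPD1 CBLN2 cells, and 6.65% and 39.8% of collagen-high cells.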

How the data were processed

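Per the labels and the study's methods, RNA of dissociated ovary cells was captured with the 10x 3′ chemistry. The authors aligned and counted reads with Cell Ranger 3.0.2 on Macaca_fascicularis_5.0, used Seurat, and deposited 1 table of raw UMI counts per gene and cell for both libraries. Here the counts were summed over cells and given as CPM, with 95% exact intervals, in Python 3.11.15 with numpy 2.4.6 and scipy 1.17.1. Ratios and intervals were tested on simulated Poisson counts of pooled groups. The simulation held no barcode endings and no unevenness between cells, so it does not cover those. Cells under 1000 UMIs were left out, ratios used a pseudocount of 10 CPM and a mean of at least 10 CPM, and 0 columns belonged to samples outside the series. Thinning drew 1000 UMIs per cell. No doublet caller was run and no cell was removed as a doublet. Barcode endings could not be matched to E84 or E116, so stages were not compared, and cells per ending were too few for a comparison between endings.

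The cells and gene lists were chosen with earlier results of these data known. Named genes were list members past 2-fold or well known, the 15 leading genes higher and the 10 lower than in both groups by the smaller ratio, and the 8 with the largest ratio in each direction of each comparison. Dividing cells were those with at least 5 UMIs of TOP2A, MKI67, UBE2C and CENPF. Alternatives changed the UMI minimum, the margin between sets, the limits on genes and mitochondrial UMIs, depth, pseudocount, low-value filter and averaging. Leaving out barcodes ending in 1 or dividing cells, and the comparison by INHBB, were added after the data were seen. No genome of the files' build was used here, so no coordinates or sequences are given. Some genes of the lists are not reported here.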

Additional observations from a re-analysis of the deposited data

How the results depend on the processing

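The number of INHBB COL4A3 cells fell to 189 with 200 to 3000 genes per cell, the range that the study itself kept. The other 126 cells (40%) had more than 3000 genes. The number fell to 117 when the rule was applied after thinning to 3000 UMIs, and to 19 under 10% mitochondrial UMIs. INHBB COL4A3 cells with barcodes ending in 1 had a median of 8.93% mitochondrial UMIs, against 19.1% in those ending in 2. The 10% limit therefore also changed the mix of endings, and the effects of the 2 on its results cannot be told apart. Against SOST TOX3 cells, 224 genes were higher and 354 lower under 10% mitochondrial UMIs, and 241 and 412 with a pseudocount of 1 CPM. Under 10% mitochondrial UMIs the cells were too few for the check within barcodes ending in 2. Counts under that limit, here and against LYPD1 CBLN2 cells, rest on pooled sums alone and are not comparable with the others. Against LYPD1 CBLN2 cells the counts were 386 and 738 under 10% mitochondrial UMIs, 218 and 384 with that pseudocount, and 198 and 387 when the INHBB set had to reach 2 times the other sets. In that comparison 189 genes were higher after thinning to 3000 UMIs and 75 without dividing cells. By INHBB, 186 genes were higher and 265 lower with a pseudocount of 1 CPM, 24 were higher without dividing cells, and 160 were lower with at least 6 UMIs of the set, 324 with 200 to 3000 genes and 142 by the mean CPM of single cells. The median of the basement membrane list over SOST TOX3 cells was 0.10 at the 2 times margin, 0.55 with 200 to 3000 genes, 0.39 under 10% mitochondrial UMIs, 0.025 with no filter on low values, 0.49 by the mean of single cells, 0.54 for barcodes ending in 2 and 0.35 without dividing cells. Over LYPD1 CBLN2 cells it was -0.38 under 10% mitochondrial UMIs, -0.065 by the mean of single cells and -0.00377 without dividing cells. Unthinned shares were 51.7% for INHA, 36.5% for AMH, 26.7% for CYP19A1 and 14.0% for IHH. Direction turned for RARRES2 (0.38) and RSPO1 (0.40) over SOST TOX3 cells and GAP43 (0.92) over LYPD1 CBLN2 cells under 10% mitochondrial UMIs, and for TOP2A (-0.76) and CENPF (-0.27) over SOST TOX3 cells without dividing cells, which that setting removes by these genes. The cause of the other changes was not tested. Of the 15 leading higher genes, all stayed above 0 in every setting run. Under 10% mitochondrial UMIs most of their ratios over LYPD1 CBLN2 cells were lower. Those of VCAM1, CYP19A1 and NR5A2 fell from 3.13, 3.03 and 2.75 to 1.63, 1.63 and 1.36. Only those of CRHBP and FST rose, to 2.55 and 3.36. Under 10% mitochondrial UMIs the calls of TNNT1 (0.93) over SOST TOX3 cells and of INHA (0.90), EGFR (0.84) and TNNT1 (0.19) over LYPD1 CBLN2 cells were lost, and without dividing cells those of IHH and UBE2C over both. Of the 10 leading lower genes, 5 stayed past 2-fold over SOST TOX3 cells and 6 over LYPD1 CBLN2 cells under 10% mitochondrial UMIs. There FAM129A (-0.78 and -0.88), GADD45B (-0.44 and -0.64) and ANKRD37 (-0.99 and -0.65) lost both calls and ADAMTS1 (-0.26) that over SOST TOX3 cells. ADAMTS1 and RARRES2 also lost it with 200 to 3000 genes (-0.98 and -0.60), ADAMTS1 after thinning to 3000 UMIs (-0.84) and RARRES2 by the mean of single cells (-0.98). Under 10% mitochondrial UMIs FSHR (0.94) fell within 2-fold over SOST TOX3 cells, and LAMB1 (-0.06), LAMA4 (-0.56), HES1 (-0.87), ITGB5 (0.99) and TOP2A (0.95) over LYPD1 CBLN2 cells, as did TOP2A (0.36) and CENPF (0.73) without dividing cells. The comparison by INHBB was not run under 10% mitochondrial UMIs or after thinning to 3000 UMIs, where a group had under 50 cells. No paired analysis was possible because the libraries could not be matched to the stages and no test was made.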

Other observations

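The last limits of the rule left out cells that met all others. The 37 cells barred only by a DAZL UMI had a median of 29289 UMIs, against 7690 in INHBB COL4A3 cells. They held oocyte genes, with GDF9, an oocyte growth factor, at 376 CPM against 20.4 CPM, FIGLA, an oocyte transcription factor, at 453 against 6.08 CPM, and DDX4, a germ cell helicase, at 235 against 15.8 CPM. INHBB was at 55.8 CPM and INHA at 21.8 CPM in them.

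The 77 cells barred only by fibrillar collagens had a median of 13442 UMIs. They held genes of the surface epithelium, with MSLN, mesothelin, at 389.6 CPM against 43.1 CPM, UPK3B, a uroplakin, at 229.6 against 19.1 CPM, and KRT19, a keratin, at 688 against 126 CPM. INHBB was at 129 CPM and INHA at 101 CPM, both below the 437 and 199.6 CPM of INHBB COL4A3 cells. Whether either set of cells holds doublets was not tested.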
